A study of Danio rerio with 5 samples.

Results

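Interior clusters are runs of Drl-FLAG and Blf-FLAG binding sites that lie close together on zebrafish chromosomes, away from the chromosome ends and from the long arm of chromosome 4. Joining any peaks of the 4 deposited lists that shared 1 bp or more gave 11333 nuclear sites, of which 7258 had a peak in both lists of Drl-FLAG or in both lists of Blf-FLAG. Of these, 5921 had a centre more than 1 Mb from either end of their chromosome and were not on chromosome 4 from 30 Mb on. A cluster was a run of at least 4 such sites with each centre at most 20 kb from the next, and 77 clusters held 589 of the 5921 sites (9.95%). Members were thus chosen by measured values, the peak calls and the distances between sites, and these are given below as descriptions with no test.

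Drl (draculin) and Blf (bloody fingers) are zinc-finger proteins of zebrafish that are expressed in the early mesoderm that gives rise to blood. Zinc-finger proteins of this kind bind DNA through tandem fingers that each contact a few bases. In CUT&Tag an antibody on the bound protein brings a transposase to the chromatin, and the tagged fragments beside the protein are sequenced. Peak callers set these fragments against a local background, which is high wherever many fragments of the library or its control align around a site.

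The libraries came from embryos of genotype blf-/-;drl 4KO at 20 hpf (hours post fertilisation), which carried drl-Flag mRNA for 2 libraries and blf-Flag mRNA for the other 2, and anti-FLAG was the antibody in all 4. The cells were RFP+ hematopoietic progenitors purified by FACS. No anti-FLAG library from embryos without a tagged protein was analysed here, and the 1 input library gave no values used here. The genotype labels assign a single mRNA to each library whereas the extraction protocol names both, and every statement on Drl against Blf rests on the genotype labels. How many embryos were pooled, and which promoter drives RFP, is not given in the sources used here, and peak lists hold no expression with which to check the cell type.

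Drl-FLAG had 5287 and 5381 nuclear peaks in its lists, and Blf-FLAG had 5475 and 5442. Fragment numbers worked out from each peak's fold and p-value put the genome-wide background of the Drl-FLAG libraries 2.94 times above that of the Blf-FLAG libraries, so a site called for Drl only may lie below the Blf detection limit. At their weakest peaks the Drl-FLAG summits held 8 fragments and the Blf-FLAG summits 4. The fragments of the lists of a factor differed by less than sampling noise. They were counted as 1 sample per factor, which leaves no replicate error and no test between factors. Intervals on shares are exact Clopper-Pearson 95% intervals. They cover counting error only, and they are too narrow where neighbouring sites share sequence.

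Most clusters were short. Of the 77 clusters, 28 held exactly 4 sites, 36 held 5 to 9, and 13 held 10 or more. The median was 5 sites and the largest cluster had 61. The 13 clusters of 10 or more held 249 of the 589 sites. The span from the first to the last base ran from 4.125 to 241.35 kb with a median of 28.1 kb, and all clusters together spanned 2862 kb, 0.230% of the interior span of 1247 Mb. The median distance between neighbouring centres was 4172 bp inside clusters, against 115126 bp between all neighbouring interior sites, a contrast that the rule itself fixes. Distances ran on evenly across the limit, with 56 from 18 to 20 kb and 56 from 20 to 22 kb. The largest distance kept within a run was 19871 bp and the smallest above the limit was 20006 bp. Just below the other threshold there were 98 runs of 3 sites.

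**Figure D1:**
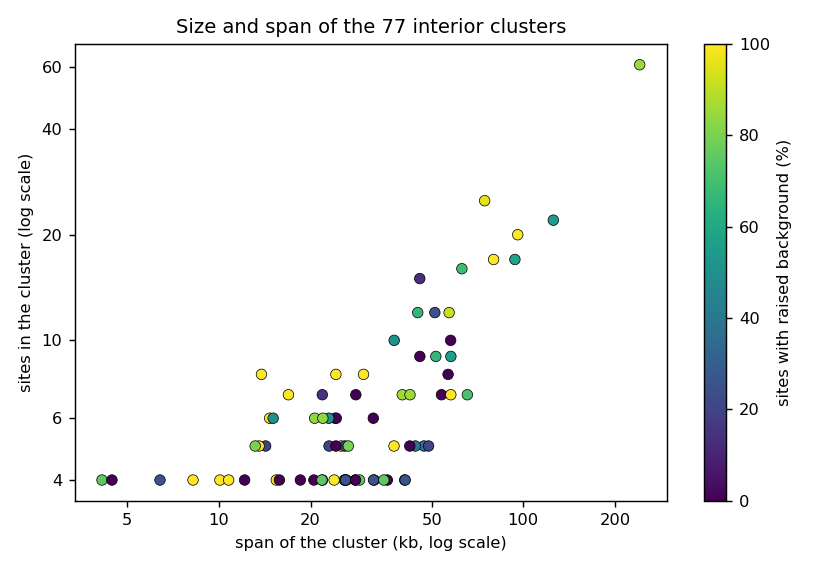
Each point is 1 of the 77 interior clusters, placed by its span in kb and its number of sites, both on log scales, with the share of its sites at raised background given by the colour. The cluster of 61 sites over 241.35 kb stands apart, and the short clusters include both ends of the colour scale.

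Clusters were unevenly spread over the chromosomes. A cluster was found on 23 of 25 chromosomes, and none on chromosomes 21 and 24. Chromosome 15 had 6 clusters with 104 sites, which was 35.4% of its 294 interior sites. Chromosome 3 had 6 clusters with 78 sites, or 21.4% of its interior sites, and chromosome 8 had 8 clusters with 49 sites. Chromosome 23 had 231 interior sites and 1 cluster of 4 sites. For 12 clusters the next cluster lay within 500 kb.

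Sites called for both proteins made up a larger share of clusters than of the rest of the interior. Of the 589 sites, 175 (29.7%, interval 26.05 to 33.6%) were called in both lists of both factors, where 14.3% of all 5921 interior sites were so called. Outside clusters the share was 12.6% (11.7 to 13.5%). Sites called for Drl only were fewer in clusters, with 177 (30.1%) against 48.0% outside and 46.3% of all interior sites. Sites called for Blf only numbered 161 (27.3%) in clusters, against 34.2% outside and 33.5% overall. A further 33 sites were called for Drl with a peak in 1 Blf-FLAG list, and 43 for Blf with a peak in 1 Drl-FLAG list. These mixed calls were 5.60% and 7.30% of cluster sites, with 2.82% and 3.09% over all interior sites.

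The makeup differed with the length of the run. Sites called for both were 12.1% of isolated sites, 11.9% in runs of 2, 22.1% in runs of 3, 20.9% in clusters of 4 or 5, 36.8% in clusters of 6 to 9 and 31.3% in clusters of 10 or more. Drl-only sites were 46.6%, 54.0%, 44.6%, 42.4%, 28.8% and 22.1% over the same classes, with the highest share in runs of 2. Sites of both factors were present in 66 of 77 clusters. Over all interior sites 63.4% were Drl sites and 50.9% Blf sites, so runs of 4 or more would often hold both. The count to be had from these shares alone was not worked out. Blf was without a site in 5 clusters and Drl in 6. Among 386 neighbouring pairs in which each site was called for both, for Drl only or for Blf only, 211 (54.7%) had the same call on either side. In 52 a Drl-only site lay beside a Blf-only site. The share of same calls was not worked out for neighbouring sites outside clusters or from the makeup of clusters, so these counts have no comparison here.

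The local background that the authors' peak caller had used was high at many of these sites. Background is called raised here where it was over 2 times the commonest value of the list. For Drl-FLAG it was raised at 197 of 378 cluster sites that could be read (52.1%, 46.9 to 57.3%), where 15.2% of all interior Drl sites had it raised and 11.1% of those outside clusters. For Blf-FLAG it was raised at 253 of 379 (66.8%, 61.8 to 71.5%), against 27.6% of all interior Blf sites and 21.99% outside clusters. The share was larger in longer runs, from 10.3% of isolated Drl sites to 60.3% in clusters of 10 or more, and from 19.7% to 75.6% for Blf. The highest ratios to the genome-wide value were 34.1 for Drl-FLAG and 91.6 for Blf-FLAG. At sites called for both factors and read in both, the Drl-FLAG and Blf-FLAG values lay on the same side of the limit at 158 of 168. Both values may come from the 1 input library, so this count does not show that separate measurements agreed. The raised values were coarse, with 39.1% of 192 raised Drl-FLAG 1 values at 4 levels (2.71, 4.07, 5.42 and 6.78 times the genome-wide value). In the values fitted to each list, 1 fragment counted as 0.80 in both Drl-FLAG lists and as 1 in both Blf-FLAG lists. Whether the background was taken from the input or from the surrounding fragments of the same library is not given in the sources used here. It was not tested.

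Calls for both proteins took a larger share of cluster sites on either side of that limit. Among sites with no raised background, 51 of 246 in clusters (20.7%, 15.8 to 26.3%) and 532 of 4480 outside (11.9%, 10.9 to 12.9%) were called for both factors. A background that could not be read counted as not raised. In this group it was read at 2969 of 2977 Drl sites and 2028 of 2035 Blf sites outside clusters, and at all in clusters. Among sites with raised background the shares were 124 of 343 (36.2%) in clusters and 141 of 852 (16.5%) outside. Drl-only sites were 45.1% of the cluster sites without raised background and 52.3% of such sites outside. The part of the raised background in the makeup of clusters as a whole was not tested.

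**Figure D2:**
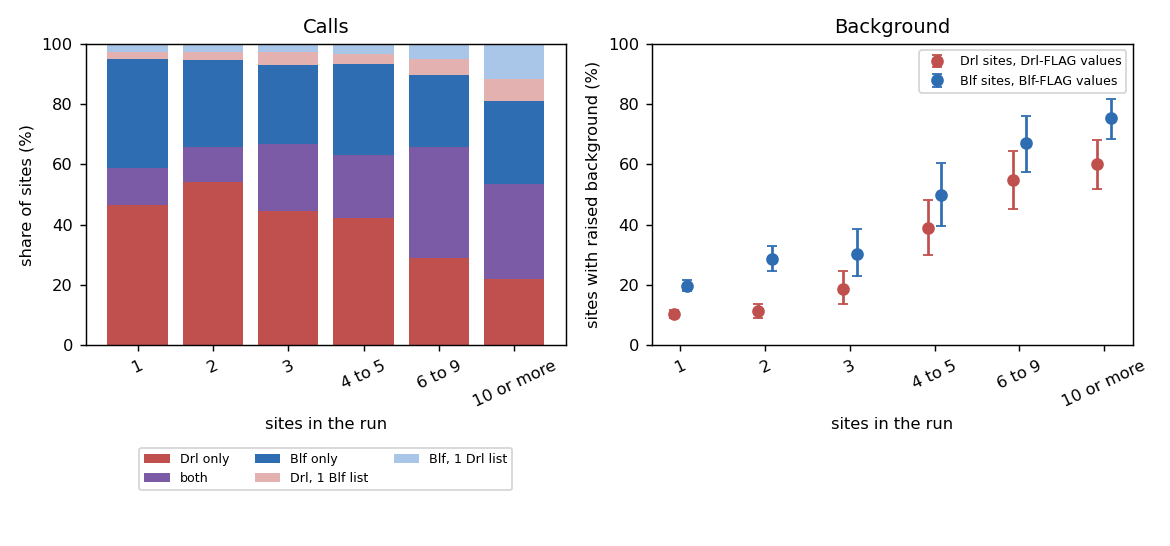
Left, stacked shares of sites by call for runs of 1, 2 and 3 sites and for clusters of 4 to 5, 6 to 9 and 10 or more. Right, the share of Drl sites (Drl-FLAG values) and Blf sites (Blf-FLAG values) at raised background with exact 95% intervals, which runs from 10.3% to 60.3% and from 19.7% to 75.6%.

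Blf enrichment had a higher median in clusters than outside them. By length, only clusters of 10 or more sites had a median above that of runs of 3. The Drl medians in and outside clusters were close, and at sites without raised background their order differed between the lists. The authors' fold enrichment at the summit had a median of 6.32 and 6.49 at Drl sites in clusters and of 6.58 in either list outside. At sites without raised background the Drl medians were 6.69 and 7.04 in clusters against 7.04 and 6.92 outside, and at sites with raised background 5.70 and 5.80 against 5.68 and 5.44. At Blf sites the medians were 6.69 and 6.56 in clusters and 5.33 outside, and 5.98 and 5.83 against 5.33 where background was not raised. Blf medians were 5.44 and 5.33 in clusters of 4 or 5 sites, and 5.75 and 5.73 in clusters of 6 to 9. They were 8.86 and 9.14 in clusters of 10 or more, and 6.07 and 6.09 in runs of 3, which lie outside clusters. The top 10% of interior sites of a factor, by the mean percentile of fold in its lists (10.1% of sites for either factor), held 104 of 379 Blf cluster sites (27.4%, 23.0 to 32.2%) and 7.66% of Blf sites outside. For Drl it held 44 of 385 cluster sites (11.4%) and 9.94% outside. In clusters of 10 or more the shares were 42.0% for Blf and 17.2% for Drl. They were 18.7% and 8.62% in clusters of 6 to 9, and 10.4% and 6.78% in clusters of 4 or 5. In runs of 3 they were 11.3% and 13.9%. At sites with raised background for neither factor, the top 10% held 14.2% of Blf cluster sites and 6.73% of Blf sites outside.

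Cluster sites were also wider and held more fragments. Drl peaks had median widths of 573 and 579 bp in clusters, against 502 and 499 bp outside, and Blf peaks of 604 and 600 bp, against 448 and 451 bp. Drl summits held a median of 21 and 21.5 fragments, against 14 in both lists outside, and Blf summits 16 and 15, against 7. The gap was smaller at sites without raised background, where Drl summits held 15 fragments against 14, Blf summits 7.5 and 7 against 6, and Blf peaks had median widths of 461.5 and 464 bp against 443 and 444 bp. Sites wider than 2 kb were 33 (5.60%) of the cluster sites and 30 (0.563%) of the others. Where both proteins were called, the Drl-FLAG 1 and Blf-FLAG 1 summits lay a median of 135 bp apart in clusters and 132 bp outside. Within 100 bp lay 43.4% and 40.4%. The lists of a factor shared the summit base less often in clusters, at 35.6% of Drl sites against 63.2% outside and at 42.7% of Blf sites against 53.2%.

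For both proteins, the cluster with the highest median percentile of fold was on chromosome 18, at chr18:30025949-30088785 (GRCz11, as all positions). This cluster had 16 sites over 62.8 kb, of which 13 were called for both factors, 2 for Drl only and 1 for Blf only. Drl folds there had medians of 29.1 and 29.9, and Blf folds of 35.4 and 35.8, on the authors' scale of fold over local background. The site at chr18:30055212-30056510 had the highest Drl folds, 57.8 and 54.8, with 25.9 and 27.3 for Blf. The site at chr18:30038050-30039518 had the highest Blf folds, 42.1 and 40.2, with 50.05 and 47.4 for Drl. Folds of the 2 proteins thus had their highest values at different sites of the run. The site with the highest Blf folds held more fragments of both proteins than the site with the highest Drl folds. It held 228 and 216 Drl fragments against 135 and 128, and 110 and 105 Blf fragments against 35 and 37. Its local background was 3.63 times the genome-wide value for Drl-FLAG and 5.23 times for Blf-FLAG.

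Background at this cluster was raised at 11 of 16 sites, mostly at 5.23 times the genome-wide value for Blf-FLAG. At the site with the highest Drl fold it was not raised, with 1.21 for Drl-FLAG and 1.25 for Blf-FLAG. The last sites of the run, chr18:30073477-30073951 and chr18:30087954-30088785, were called for Drl only with folds of 5.19 and 5.65 and of 5.66 and 6.12. They lay well below the others, and the rule joins them to the run by distance alone.

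**Figure D3:**
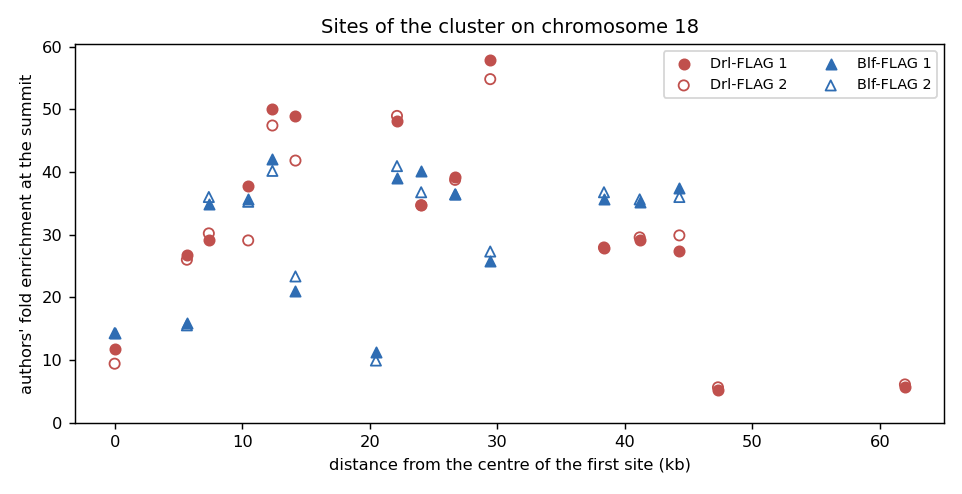
The authors' fold enrichment at the summit of each site in the chromosome 18 cluster, by distance in kb from the centre of the first site, in the 4 lists. Blf folds were 42.1 and 40.2 at their highest and Drl folds 57.8 and 54.8, and the 2 sites at the right end, called for Drl only, had folds from 5.19 to 6.12.

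After it, the highest median percentiles of Drl fold among clusters with at least 3 Drl sites were found at 4 clusters. At chr1:28261412-28285483 there were 6 sites, 4 of both factors and 2 of Drl only, and all had raised background. Its site at chr1:28275958-28280532 had Drl folds of 82.9 and 82.8 and Blf folds of 15.2 and 15.4, and its p-value was too small for the Drl background to be read. At chr6:24249468-24295157 there were 15 sites with median Drl folds of 13.8 and 12.9, and the site chr6:24276113-24276546 reached 20.7 and 19.8 for Drl and 16.4 and 17.1 for Blf at a background of 1.29 times the genome-wide value in both. At chr17:30419678-30462106 the 4 sites of both factors were nearly equal in the first lists. Drl-FLAG 1 folds were 9.44, 10.1, 10.1 and 9.76, and Blf-FLAG 1 folds were 9.56, 9.56, 9.56 and 9.03. The second lists were less even. The site chr17:30424525-30425326 had folds of 7.50 in Drl-FLAG 2 and 10.6 in Blf-FLAG 2, against 9.76 and 9.35 at chr17:30429298-30430133. At chr7:21811400-21837306 the 5 Drl sites had Drl-FLAG 1 folds of 10.7, 9.35, 9.35, 13.5 and 6.58, all at the genome-wide Drl background, and the 1 site that was also called for Blf had Blf folds of 4.55 and 5.50. These clusters thus include Drl sites of high rank with and without raised background. Single sites of other clusters reached higher Drl folds than most of these. They were named after their values were seen. At chr20:12916868-12938809 the first 2 of 6 sites had Drl-FLAG 1 folds of 76.3 and 71.4, and the other Drl sites 8.90 and below. At chr19:14971838-14995737 the 2 Drl sites of 4 had Drl-FLAG 1 folds of 70.1 and 10.9, and all 4 sites had raised background. At chr10:44344484-44380224 the 2 Drl sites of 4 had Drl-FLAG 1 folds of 30.6 and 8.53, and no site had raised background.

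High Blf folds came from chromosome 25 and from a stretch of chromosome 8. At chr25:18781581-18877465 all 20 sites had raised background, and the median Blf folds were 14.8 and 14.5. Of these sites 12 were called for both proteins, 3 for Drl only and 5 for Blf only. The site chr25:18801833-18803262 had Blf folds of 18.9 and 21.6 and Drl folds of 9.67 in both lists. On chromosome 8 the clusters chr8:34434445-34451358, chr8:34519261-34576315 and chr8:34922809-34936351 had 7, 12 and 5 sites. None of their sites was called for Blf only, 19 were called for both proteins and 5 for Drl only, and the median Blf-FLAG 2 folds were 10.9, 11.8 and 12.1. Background was raised at 7 of 7, 11 of 12 and 5 of 5 of their sites.

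The largest cluster, chr15:9635035-9876384, had 61 sites, and Blf prevailed in it. Blf was called at 48 of these sites, 25 of them for Blf only, 8 for both factors and 15 with a peak in 1 Drl-FLAG list. Drl was called without Blf at 13 sites, 4 of which had a peak in 1 Blf-FLAG list. Its Blf folds had medians of 10.01 in list 1 and 10.4 in list 2, and its Drl folds had medians of 5.95 and 5.42. Background was raised at 52 of the 61 sites. A further 23 sites seen in single lists or other mixtures lay inside its span and were not members. Without this cluster, sites called for both were 31.6% of the remaining 528 and the top 10% held 23.3% of Blf cluster sites.

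Other large clusters leaned to one protein or the other. The cluster of 25 sites at chr3:39003997-39078650 had 18 Blf-only sites and 5 more called for Blf with a peak in 1 Drl-FLAG list, and none called for Drl only. Peaks covered 52.9% of its span, background was raised at 24 of 25 sites, and median Blf folds were 6.10 and 5.70. The cluster of 17 sites at chr16:36358720-36452586 had 11 Drl-only sites and 1 Blf-only site, with raised background at 10. The cluster of 22 sites at chr3:1107045-1232585 was mixed, with 6 sites of both, 5 of Drl only and 7 of Blf only, and a median fold of 7.42 in Drl-FLAG list 1 and of 6.94 in Blf-FLAG list 1. Raised background was found at 12 of its sites.

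Several clusters had sites at repeated distances. Among the 58 combinations of a factor and a cluster with at least 5 sites of that factor, a median of 33.3% of the distances between consecutive summits lay within 10% of one common distance. In 8 clusters at least 5 distances, and 50% or more of all, did so in both lists of the factor. Of these, 6 were rows of Blf sites and 2 were rows of Drl sites. This measure was chosen after the values had been seen. The common distance was the observed distance that gathered most others, and it counted itself. Part of each share was thus built in.

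The most regular row was on chromosome 13, at chr13:25313568-25364777, with 12 Blf sites. In Blf-FLAG list 1, 10 of 11 distances between summits lay between 4633 and 4678 bp with a median of 4671 bp, and in list 2, 10 of 11 lay between 4649 and 4699 bp. The coefficient of variation of the distances between site centres was 0.0546, the lowest of 49 clusters with at least 5 sites, whose median was 0.593. Drl was called at 8 of the 12 sites. Drl-FLAG 1 folds at these 8 sites ran from 4.08 to 8.88, and Blf-FLAG 1 folds at all 12 sites from 6.28 to 11.4. Background was raised at 3 of its 12 sites. At the 8 sites of both proteins, the Drl-FLAG 1 summit lay before the Blf-FLAG 1 summit at 7, in the direction of rising coordinates, with a median separation of 204.5 bp. In the second lists it lay before at 6.

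A distance near 4.2 kb recurred in Blf rows on chromosomes 15 and 25. In the cluster of 61 sites, 34 of 47 Blf distances lay in step at a median of 4230 bp in list 1 and 4236 bp in list 2. At chr15:7197169-7277049, 9 of 12 lay in step at 4248 bp in both lists. At chr25:18781581-18877465, 10 of 16 did so at 4276.5 and 4250.5 bp. There 5 of 14 Drl distances also lay in step, at 4280 and 4283 bp. Some longer distances in these 3 clusters were close to a multiple of the step, which left 13 places without a Blf site. How often unrelated distances would lie as close to a multiple was not tested. A Blf-FLAG peak of a single list was found within 10% of a step of 1 of these 13 places, and no Drl-FLAG peak at any.

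A distance near 4.65 kb recurred in Drl rows. At chr6:24249468-24295157, 6 of 8 Drl distances lay in step at 4651 bp in list 1 and 4635 bp in list 2. At chr1:30776216-30821205, 5 of 9 did so at 4632 and 4635 bp. In the latter the Drl-FLAG 1 folds of the 10 Drl sites were uneven, from 3.11 to 16.1. Background was raised at 2 of 15 sites of the first cluster and at 8 of 12 sites of the second. A step near 4.65 kb was not particular to Drl, since the chromosome 13 Blf row had a step of 4671 bp. In that row 6 of 7 Drl distances lay in step at 4669 bp in list 1, and 4 of 7 at 4668 bp in list 2. The remaining rows had other steps, at 6937 and 7140 bp for Blf at chr1:14693884-14745471 and at 1960 bp in both lists for Blf in the chromosome 18 cluster. By the centres of all sites, the cluster of 7 sites at chr8:34961227-35001261 was also among the 5 most even, with a coefficient of variation of 0.272, and it had 4 sites of both proteins and no Blf-only site.

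**Figure D4:**
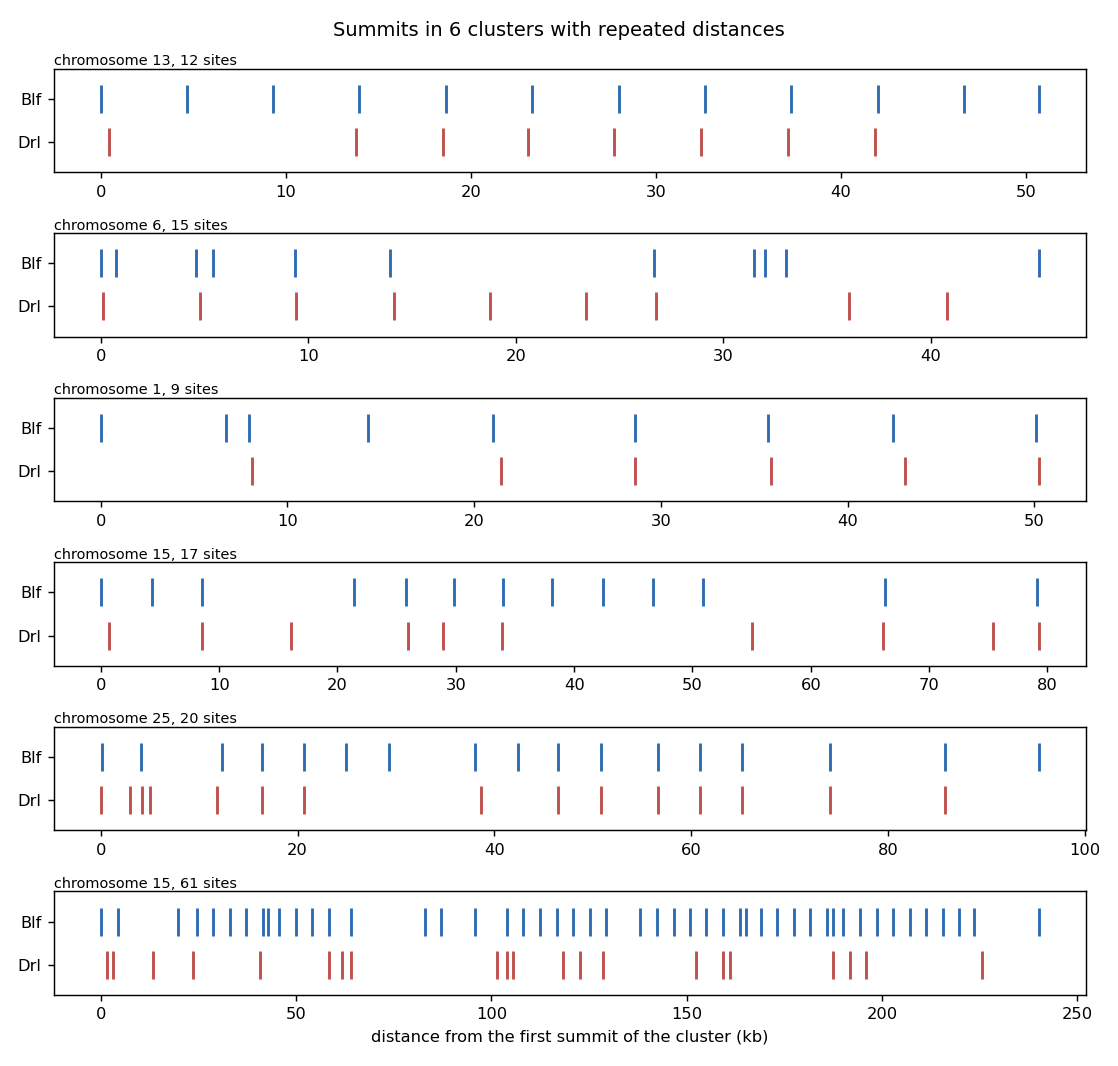
Summits of Drl sites and Blf sites in 6 clusters with repeated distances, by distance in kb from the first summit of the cluster. The chromosome 13 row is the most even, with 10 of 11 Blf distances between 4633 and 4678 bp.

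With all clusters pooled, the rows above included, the same distances stood out. Of 307 distances between consecutive Blf-FLAG 1 summits, 61 lay from 4.0 to 4.5 kb and 25 from 4.5 to 5.0 kb, with 12 in the 0.5 kb below and 7 in the 0.5 kb above. Of 314 Drl-FLAG 1 distances, 16 lay from 4.0 to 4.5 kb and 33 from 4.5 to 5.0 kb, with 9 on either side. For Blf, 3 clusters gave most of the distances near 4.2 kb. Of the 61 Blf distances from 4.0 to 4.5 kb, in 13 clusters, the cluster of 61 sites gave 32 and the other rows near 4.2 kb gave 9 each. Of the 25 Blf distances from 4.5 to 5.0 kb, the chromosome 13 row gave 10. The Drl distances were more spread, and of the 33 from 4.5 to 5.0 kb, in 15 clusters, the chromosome 13 and chromosome 6 rows gave 6 each.

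**Figure D5:**
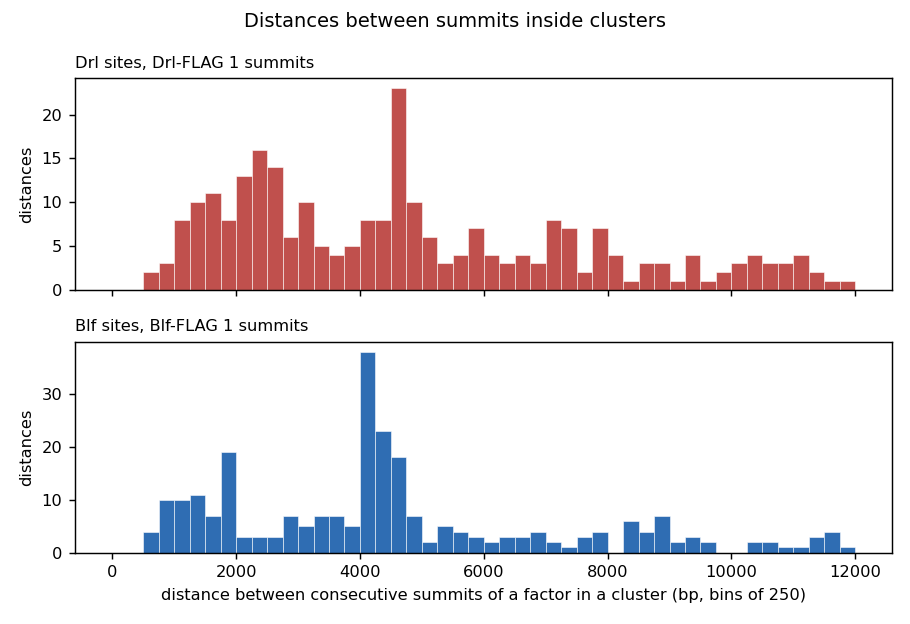
Distances in bp, up to 12 kb, between consecutive summits of a factor inside clusters for Drl (above) and Blf (below), from list 1 of each factor. Blf distances pile up between 4.0 and 4.5 kb, where 61 lie, and Drl distances between 4.5 and 5.0 kb, where 33 lie.

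In the largest cluster a number of Drl sites stood between Blf sites at similar offsets. Of its 13 Drl sites without a Blf call, 8 had a centre 1591 to 1872.5 bp beyond the centre of the preceding Blf site, and the other 5 lay 2054 to 9647.5 bp beyond. By the summits of the first lists 8 lay 1522 to 1682 bp beyond the preceding Blf summit, with a median of 1641.5 bp, and by the second lists 9 lay 1444 to 1900 bp beyond. The window from 1.4 to 1.9 kb was set after these values had been seen, and it bounds these ranges. The offsets of the second lists fill most of it.

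In 20 clusters no peak of any list had raised background, and their shares of sites called for both and for Drl only were nearer to those outside clusters. They held 107 sites, of which 15 (14.0%) were called for both factors, 58 (54.2%) for Drl only and 29 (27.1%) for Blf only, the last close to the 27.3% of all cluster sites. The median fold was 6.58 for Drl and 5.33 for Blf in either list, the same to 3 digits as at all sites outside clusters. At a given background the fold moves in steps of whole fragments, so equal medians are only a coarse match. At outside sites without raised background the medians were 7.04 and 6.92 for Drl and 5.33 for Blf in either list. In 17 other clusters every site had raised background, and of their 122 sites 59 (48.4%) were called for both, 21 (17.2%) for Drl only and 25 (20.5%) for Blf only. Drl summits in these held a median of 47 and 42 fragments, against 13 and 14 in the 20 clusters, and Blf summits 30 and 31, against 6 in both lists. The 2 groups of clusters were set by background, and a call over a higher background needs more fragments, so this contrast follows from the grouping. Median folds in the 17 clusters were 5.51 and 5.72 for Drl and 6.14 and 6.36 for Blf.

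The largest of the 20 clusters was at chr3:23677372-23735081, with 10 sites, and a cluster of 9 sites at chr3:23558844-23604566 came 72.8 kb before it. Both were mostly Drl sites, with 7 and 8 called for Drl only, and all their sites had a background at the genome-wide value. In the first, Drl-FLAG 1 folds ran from 5.19 to 12.6 and the site chr3:23699931-23700571 was the highest with 12.6 and 11.7. In the second they ran from 5.66 to 12.6 and the site chr3:23579874-23580250 was the highest with 12.6 and 11.2. The clusters at chr3:49259846-49316445 and chr17:27709382-27737538 were mixtures, with 3 Drl-only and 4 Blf-only sites in the first and 3 of each in the second. The cluster at chr7:58382369-58436219 had 5 Blf-only sites of 7, and its Blf-FLAG 2 folds were 4.97 at 5 of the 7 sites.

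Clusters of a single kind were few and short. All sites were called for both proteins in 3 clusters, chr8:34434445-34451358, chr4:28872914-28887584 and chr2:14660562-14685750, and every one of their 18 sites had raised background. At chr4:28872914-28887584 the 6 centres were a mean of 2710 bp apart, and the background was 15.3 to 33.9 times the genome-wide value for Drl-FLAG. All sites were Drl only in 5 clusters, of which chr16:14420597-14444821 had 5 sites with Drl-FLAG 1 folds of 5.96, 6.69, 5.22, 7.50 and 6.32. The other Drl-only clusters had 4 sites each, at chr22:18730980-18746771, chr9:35991189-36009696, chr1:13948777-13989554 and chr5:61895079-61905834, with median Drl-FLAG 1 folds of 7.27, 6.38, 5.66 and 2.84. The background was raised at all sites of the last and at no site of the other Drl-only clusters. All sites were Blf only in 5 clusters, the largest being chr1:53416584-53446434 with 8 sites. There peaks covered 83.3% of the span and the Blf-FLAG 1 folds ran from 3.23 to 4.00. All 8 of its sites had raised background, at 27.5 to 36.0 times the genome-wide value for Blf-FLAG. The other Blf-only clusters were chr12:16804757-16817905 with 5 sites and chr22:33039508-33043632, chr23:33541091-33545538 and chr5:40937529-40965620 with 4 each, and their median Blf-FLAG 1 folds were 5.84, 6.30, 7.80 and 4.95. Background was raised at 4, 3, 0 and 0 of their sites.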

How the data were processed

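CUT&Tag with anti-FLAG was analysed in 4 libraries, grouped by title and genotype label, each with 1 deposited peak list. The submitters' processing notes name MACS2, Bowtie2 2.4.2, SAMtools 1.10 and Picard 2.26.1, and the build GRCz11. They also name bedtools 2.30.0, FastQC 0.11.9 and bcl2fastq. Which control, settings and filters MACS2 had is not given in the sources used here. Per peak, the authors deposited a score, a fold enrichment (a ratio) at the summit, the −log10 of the p-value and of the q-value, and the summit position. The fold is the authors' own value and only described or ranked peaks within a list.

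Overlapping nuclear peaks (at least 1 bp) were joined into sites, and sites into clusters as described above. Fold (with a pseudocount of 1) and −log10 p were inverted, as MACS2 computes them, to whole fragments and local background. A match within 0.05% of the fold was required, and 99.3% to 99.7% of peaks were read. Peaks with a −log10 p over 290 (11 to 34 per list) were not. The procedure was tested on simulated data. Python 3.11.15, pandas 2.3.3, numpy 2.4.6 and scipy 1.17.1 were used.

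The members, lists and measures were chosen with earlier results of these data known. Clusters named in the text were the 10 with most sites, the 5 highest by median fold percentile for Drl and for Blf (among clusters with at least 3 sites of the factor), those of a single call, the 5 with most sites among clusters without raised background, and the 5 most evenly spaced. Within the first 2 groups, sites named were those with the highest fold. Other sites and clusters were named after their values were seen. The lists of a factor counted as 1 sample, so no test was made. Alternatives varied the distance, the number of sites, the q-value, the overlap, the ends and the lists used. A GRCz11 sequence or annotation was not used here, so sites are named by position, without genes or sequences.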

Additional observations from a re-analysis of the deposited data

How the results depend on the processing

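Each quantity was recomputed under the alternatives, and 71 of 115 values stayed within their counting interval, or within 1.5 times for a count. Sites in clusters were called for both factors more often than sites outside under each alternative on distance, run length, q-value, overlap, joining, ends and lists. The number of clusters was 121 with centres up to 40 kb apart, 175 with at least 3 sites, 36 with at least 6, and 39 (332 sites) at a −log10 q from 5 up. The share of interior sites in clusters was 7.23% at 10 kb, 14.2% at 40 kb, 14.9% with at least 3 sites, 6.96% with at least 6 and 7.70% with sites under 1 kb apart joined. The share called for both was 34.1% at 10 kb, 21.5% with a 50% overlap of both peaks and 35.1% with near sites joined. The Drl-only share was 25.2% at 10 kb, 35.0% at 40 kb, 34.9% with at least 3 sites, 24.8% with at least 6 and 36.1% with the 50% overlap, and the Blf-only share was 33.5% with the 50% overlap and 21.9% with near sites joined. With 1 list left out, the other list of that factor sufficed for a call. Drl-only shares then ran from 30.3% to 36.4%, and Blf-only shares from 27.99% to 34.8%. Raised background was found at 59.5% (Drl) and 74.8% (Blf) of sites at 10 kb, 41.9% and 59.0% at 40 kb, 40.4% and 56.7% with at least 3 sites, 58.0% and 72.4% with at least 6, 59.6% and 80% at the stricter q, and 62.7% and 73.6% with a limit of 1.5 times. The causes of these moves were not tested.

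3 alternatives were chosen after seeing the data. With only sites without raised background clustered, 32 clusters of 175 sites remained. These were 3.70% of the 4726 interior sites without raised background, with 21.7% called for both and 45.1% for Drl only. Among cluster sites without raised background the shares were 20.7% and 45.1%. Without the largest cluster 9.01% of the remaining 5860 interior sites were in clusters.

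No paired analysis was possible because no test across samples was made, with 1 sample left per factor. Precision is limited by counts of 4 to 8 fragments at the weakest summits, by the deeper Drl-FLAG libraries and by an unstated control.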
